A study of Mus musculus with 6 samples.

Results

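Transforming growth factor beta (TGF-beta) signaling was followed through 9 genes, taken by symbol from the 33696 genes counted in single cells of mouse kidney. They are the ligands Tgfb1, Tgfb2 and Tgfb3, the receptors Tgfbr1, Tgfbr2 and Tgfbr3, the integrin subunit Itgb6, the inhibitor Smad7 and the target gene Tgfbi. All had a row in the files, and the rule uses gene symbols. These genes and the pathway list below were chosen with earlier results of these data known. Counts of calls among them are therefore not those of an independent draw from all genes. The study examined how tubular cells and macrophages interact in mineralocorticoid-dependent hypertensive kidney injury. Each of the 6 libraries came from the kidney of 1 male C57BL/6 mouse, bought at 8 to 10 weeks of age. The 3 DOCA-salt mice had lost the left kidney and carried a 50 mg pellet of deoxycorticosterone acetate, a mineralocorticoid, with 1% NaCl as drinking water for 21 days. The 3 sham mice had a sham operation, no pellet and normal water. The groups therefore differ in nephrectomy, pellet and salt, which cannot be told apart.

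TGF-beta is secreted in a latent form, bound to a propeptide that masks it. Integrins, among them the one formed by the Itgb6 product with the alpha v subunit, release active ligand from some of the latent forms. Release of TGF-beta 2 by this integrin was not examined here. Active ligand binds the type II receptor (Tgfbr2) and recruits the type I receptor (Tgfbr1). The type III receptor betaglycan (Tgfbr3) presents ligand and is of special weight for TGF-beta 2. The activated receptors phosphorylate SMAD proteins that enter the nucleus, Smad7 feeds back on the receptor, and Tgfbi encodes a matrix protein first found as a TGF-beta induced transcript. In the kidney the pathway is best known as a driver of fibrosis.

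On GRCm39 the ligand genes lie at chr7:25386390-25404506 (Tgfb1, plus strand), chr1:186354985-186438294 (Tgfb2, minus strand) and chr12:86102756-86126301 (Tgfb3, minus strand). The receptor genes lie at chr4:47353134-47414931 (Tgfbr1, plus strand), chr9:115913361-116004800 (Tgfbr2, minus strand) and chr5:107249402-107437623 (Tgfbr3, minus strand). Itgb6 lies at chr2:60428636-60553035 on the minus strand and Tgfbi at chr13:56757336-56787375 on the plus strand. Genes on the opposite strand that also have rows in the files overlap Tgfb2 (Gm35546, Gm29491), Tgfb3 (Ttll5, Gm48008) and Tgfbr2 (Gm4668), and reads from such partners cannot be separated unless counting used strand, which was not stated.

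The promoters of Tgfb2 and Itgb6 are shown because these genes rose together in several tubular segments. RefSeq windows (GRCm38.p6) run from 250 bases before to 50 bases after the start, and windows of 6 of the 9 genes were searched. Capitals mark the SMAD motif CAGAC or its reverse complement GTCTG. The Tgfb2 window is chr1:186705940-186706239 and the Itgb6 window chr2:60722554-60722853, both on the minus strand.
Tgfb2: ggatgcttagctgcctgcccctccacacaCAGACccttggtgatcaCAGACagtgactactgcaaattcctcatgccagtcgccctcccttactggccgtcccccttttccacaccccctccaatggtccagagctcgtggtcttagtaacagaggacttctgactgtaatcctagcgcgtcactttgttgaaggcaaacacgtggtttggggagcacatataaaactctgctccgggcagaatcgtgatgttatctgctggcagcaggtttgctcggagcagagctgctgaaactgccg
Itgb6: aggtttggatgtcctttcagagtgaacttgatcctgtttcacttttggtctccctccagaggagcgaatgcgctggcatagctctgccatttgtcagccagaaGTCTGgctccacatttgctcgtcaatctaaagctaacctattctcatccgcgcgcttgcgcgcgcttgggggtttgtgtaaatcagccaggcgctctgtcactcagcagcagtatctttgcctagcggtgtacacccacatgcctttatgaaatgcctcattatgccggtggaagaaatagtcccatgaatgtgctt
The Tgfb2 window holds the motif at 2 places and this Itgb6 window at 1. RefSeq gives Itgb6 a second window, chr2:60673644-60673943 on the same strand, which holds neither motif and is not printed. Of all 32851 RefSeq windows of 300 bases, 49.6% hold it on either strand, so its presence is common. The steroid receptor half-site AGAACA (or TGTTCT) is in neither printed window and in 19.0% of all windows.

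Of 76774 barcodes, 60561 passed the limits on genes, unique molecular identifiers (UMIs) and mitochondrial UMIs, and 55630 cells stayed after removal of likely doublets. A mouse gave 7701 to 9933 cells and 93172739 to 137819127 UMIs over all its barcodes. Any pair of libraries shared at most 35 barcodes. The 49 clusters were named from marker genes, and 4 stayed unnamed, of which 1 (609 cells) came almost wholly from DOCA-salt mouse 2. Proximal tubule, in which all 40 of its markers were detected in both groups, made up 63.8% ± 2.4 (SD, n = 3) of sham cells and 54.0% ± 3.89 of DOCA-salt cells. Fibroblasts made up 0.128% ± 0.0936 of sham cells (23, 4 and 10 cells) and 2.91% ± 0.417 of DOCA-salt cells (216, 296 and 311 cells). Macrophages rose from 1.57% ± 0.147 to 6.1% ± 1.32. These shares did not overlap between the groups.

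In whole-kidney sums 6 of the 9 genes were higher in the DOCA-salt mice and none was lower. Values are UMIs scaled to the total of all retained cells of a mouse (CPM, the usual count unit scaled to library size), and changes are log2 values, DOCA-salt minus sham, with their standard error (SE). They were tested with edgeR across 19665 genes, of which 17.2% passed an adjusted p of 0.05 in either direction, 11.5% rising and 5.69% falling. The median change was 0.72 over the 9 genes and -0.03 over all genes. The CPM values of the groups did not overlap for 7 of the 9 genes, as for 34.4% of all genes with enough UMIs. An exact permutation test of 3 mice against 3 cannot give a p below 0.1. In such sums, more cells of a type and more RNA per cell cannot be told apart.

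**Figure D1:**
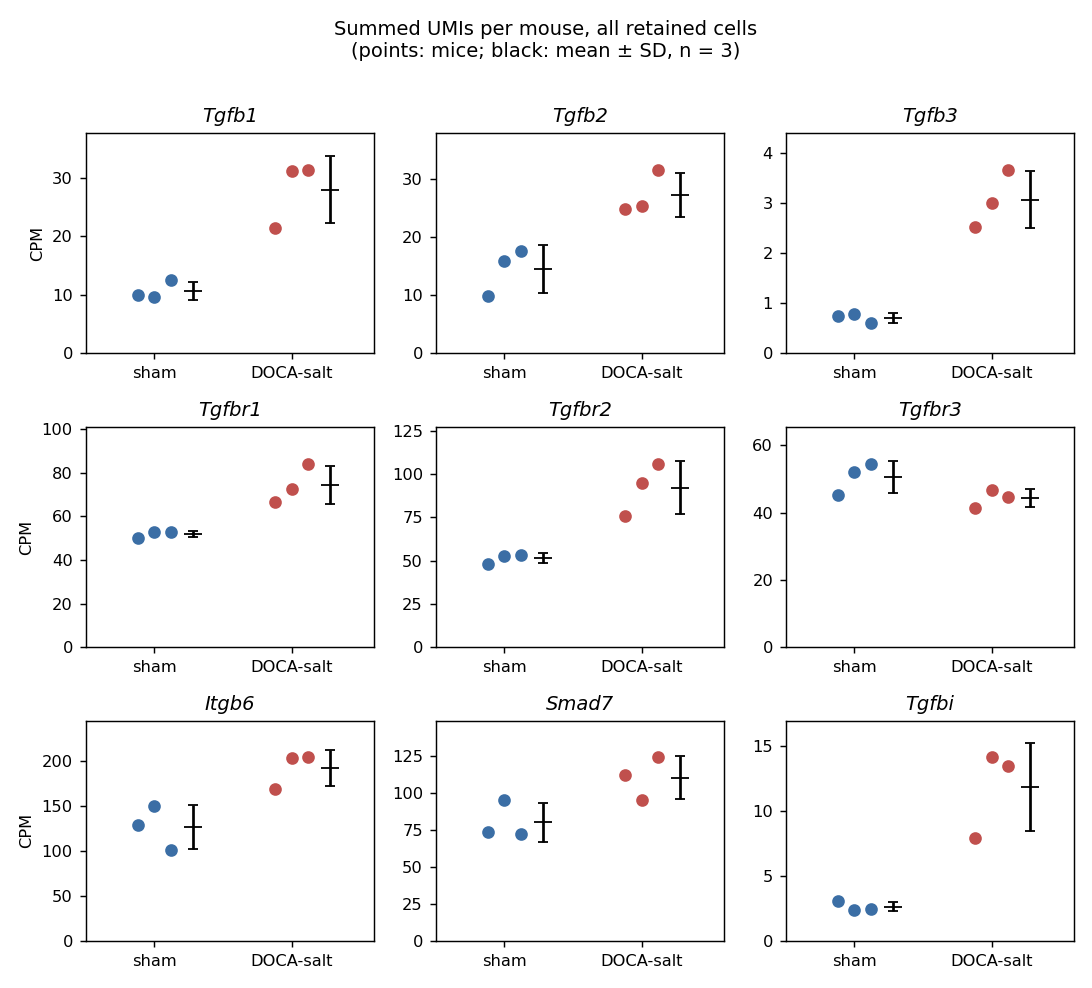
Level of each gene in the summed cells of each mouse (vertical axes, CPM, starting at 0) in the sham and DOCA-salt groups. Points are mice and black marks are the mean ± SD (n = 3). For 7 genes all DOCA-salt points lie above all sham points, and for Tgfbr3 and Smad7 the groups overlap.

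Among the ligands, Tgfb1 was at 10, 9.63 and 12.5 CPM in the sham mice and at 21.4, 31.1 and 31.3 CPM in the DOCA-salt mice, a change of 1.26 (SE 0.17, adjusted p = 0.0026). Every DOCA-salt mouse exceeded every sham mouse, and DOCA-salt mouse 1 was the lowest of its group. Tgfb3 was sparse, with 68, 53 and 39 UMIs in the sham mice and 232, 310 and 261 in the DOCA-salt mice, and rose by 1.98 (SE 0.2, adjusted p = 0.000821). Without fibroblasts the rise was 1.11 (adjusted p = 0.0111), from 0.687, 0.78 and 0.585 CPM to 1.46, 1.42 and 1.85 CPM. Tgfb2 went from 9.85, 15.9 and 17.6 CPM to 24.7, 25.3 and 31.5 CPM, a rise of 0.79 (SE 0.21, adjusted p = 0.0363). The groups were apart, but the Tgfb2 call was lost when any one of sham mouse 1 or the DOCA-salt mice was left out, without fibroblasts and with at most 20% mitochondrial UMIs (changes of 0.57 to 0.97 over all alternatives).

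Of the receptors, Tgfbr2 rose by 0.72 (SE 0.12, adjusted p = 0.00638), from 48.1, 52.7 and 53.6 CPM to 75.9, 94.7 and 106 CPM. Tgfbr1 rose by 0.4 (SE 0.098, adjusted p = 0.0282), from 50.3, 52.8 and 52.7 CPM to 66.7, 72.4 and 84.1 CPM. For both, the lowest DOCA-salt value exceeded the highest sham value, although the Tgfbr1 call was lost without macrophages and without any one of sham mouse 1 or 3 or DOCA-salt mouse 2 or 3 (0.26 to 0.52 over all alternatives). Tgfbr3 alone pointed the other way, at 45.4, 52.2 and 54.6 CPM in sham and 41.4, 46.7 and 44.8 CPM in DOCA-salt mice, a difference of -0.32 (SE 0.1, adjusted p = 0.0669) that did not pass the test. It passed once fibroblasts were left out (-0.4, adjusted p = 0.0292).

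The target gene Tgfbi rose by 2.04 (SE 0.23, adjusted p = 0.00121), close to the rise of Tgfb3, from 3.05, 2.41 and 2.44 CPM to 7.94, 14.1 and 13.5 CPM. Itgb6, the activating integrin subunit, was at 129, 150 and 101 CPM in sham and 169, 203 and 204 CPM in DOCA-salt mice, without overlap, but its change of 0.48 (SE 0.14, adjusted p = 0.0507) lay just outside the threshold. Smad7 gave 73.2, 95.3 and 71.9 CPM against 112, 94.7 and 124 CPM, and its change of 0.34 (SE 0.14, adjusted p = 0.136) did not pass.

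The cells that held the UMIs differed by gene and by group. Endothelial cells held 51.1% of the sham UMIs of Tgfb1 and 38.0% of those in DOCA-salt mice, where fibroblasts held 22.7%. For Tgfb3, smooth muscle cells and pericytes, counted as 1 class, held 40% in sham mice, and fibroblasts held 50.7% in DOCA-salt mice. Tgfbi lay mainly in immune cells, with macrophages at 37.2% and 34.0% in the respective groups. An unnamed cluster led by Mmp12, Lyz2 and Trem2, with 6 sham and 125 DOCA-salt cells, held a further 25.2% in DOCA-salt mice, at 483 ± 45.2 CPM (SD, n = 3). Itgb6 was epithelial, with 72.1% and 67.6% in the proximal tubule. Tgfb2 was spread more widely. Its share in endothelial cells was 59.0% in the sham and 15.2% in the DOCA-salt group, a cluster led by C3, Wt1 and Havcr1 held 16.3% and 26.0%, and the distal convoluted and connecting tubule held 0.481% and 19.8%. Principal and intercalated cells held 8.92% and 13.1%, and fibroblasts 10.8% in DOCA-salt mice.

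**Figure D2:**
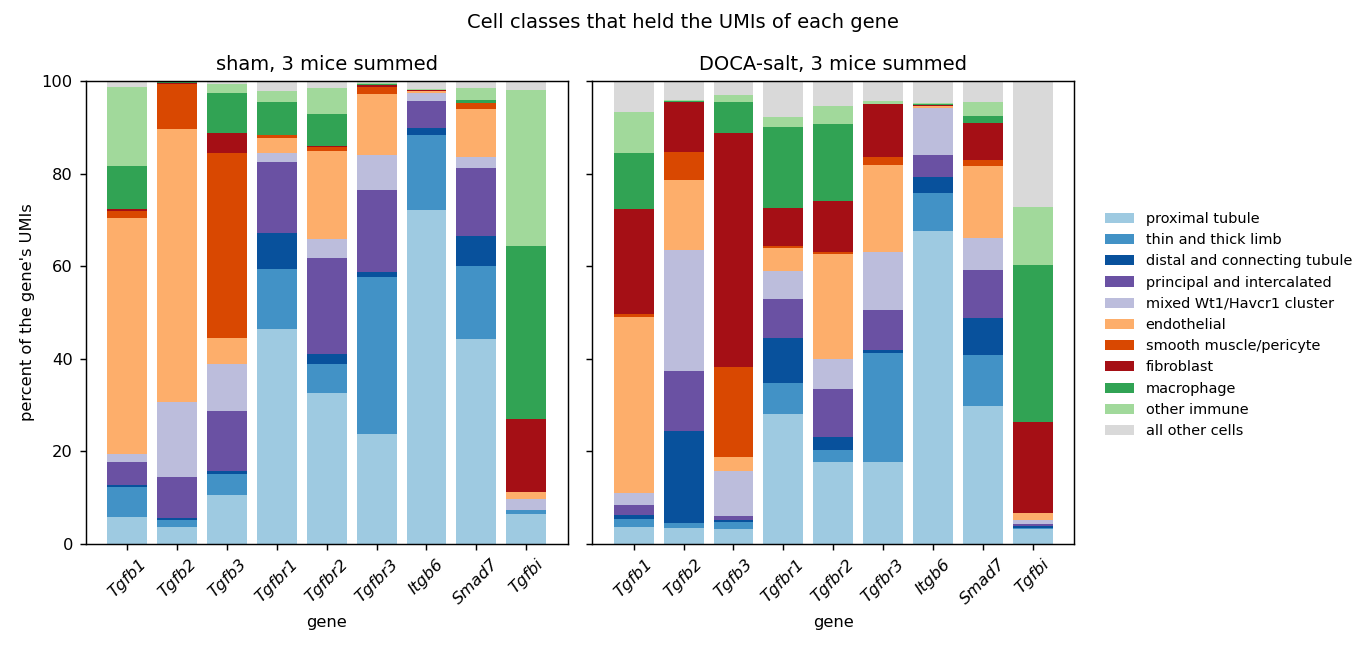
Percent of each gene's UMIs (vertical axis) that came from each group of cell classes, over the 3 mice of a group summed, sham left and DOCA-salt right. The endothelial part of Tgfb2 falls from 59.0% to 15.2%, and fibroblasts take up 50.7% of Tgfb3 in DOCA-salt mice. In DOCA-salt mice 27.3% of Tgfbi lies in all other cells, which include the unnamed clusters.

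Changes within cell types were tested on UMIs summed per mouse in 18 classes, where a mouse gave at least 10 cells. A gene had to pass a filter on low counts, and the 9 genes gave 105 tests in all. Of these, 22 were called higher in DOCA-salt mice and 6 lower, against 4.2% and 3.46% of all tests of all genes. Tgfb2 and Itgb6 gave 6 of the higher calls each, and Tgfbr3 gave 4 of the lower ones. Where called genes are said below not to overlap between the groups, they were chosen by their calls. That lack of overlap only describes the values and is no further support. No member was called in the thin limb, the thick ascending limb, macrophages, monocytes, neutrophils, dendritic cells, T or NK cells, B cells or cycling cells. The share of genes called was 0.74% in the thin limb, 1.48% in the thick ascending limb (0.673% rising), 0.289% in dendritic cells (0.241% rising), 1.61% in T or NK cells and 1.54% in cycling cells. In macrophages 6.29% of genes were called, 3.1% rising and 3.19% falling, and the members' values were close: Tgfb1 was at 126 ± 2.99 CPM in sham and 116 ± 14.3 CPM in DOCA-salt mice, and Tgfbi at 126 ± 37.2 and 136 ± 12.8 CPM (SD, n = 3). Different clusters held most macrophages in the groups. The unnamed cluster led by Mmp12, Lyz2 and Trem2, with Tgfbi at 443 to 532 CPM in the DOCA-salt mice, is not counted among the macrophages here. Monocytes, neutrophils and B cells gave no call for any gene in edgeR, where 31 genes were higher and 29 lower in monocytes, 14 and 6 in neutrophils and 52 and 49 in B cells at an unadjusted p under 0.05.

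**Figure D3:**
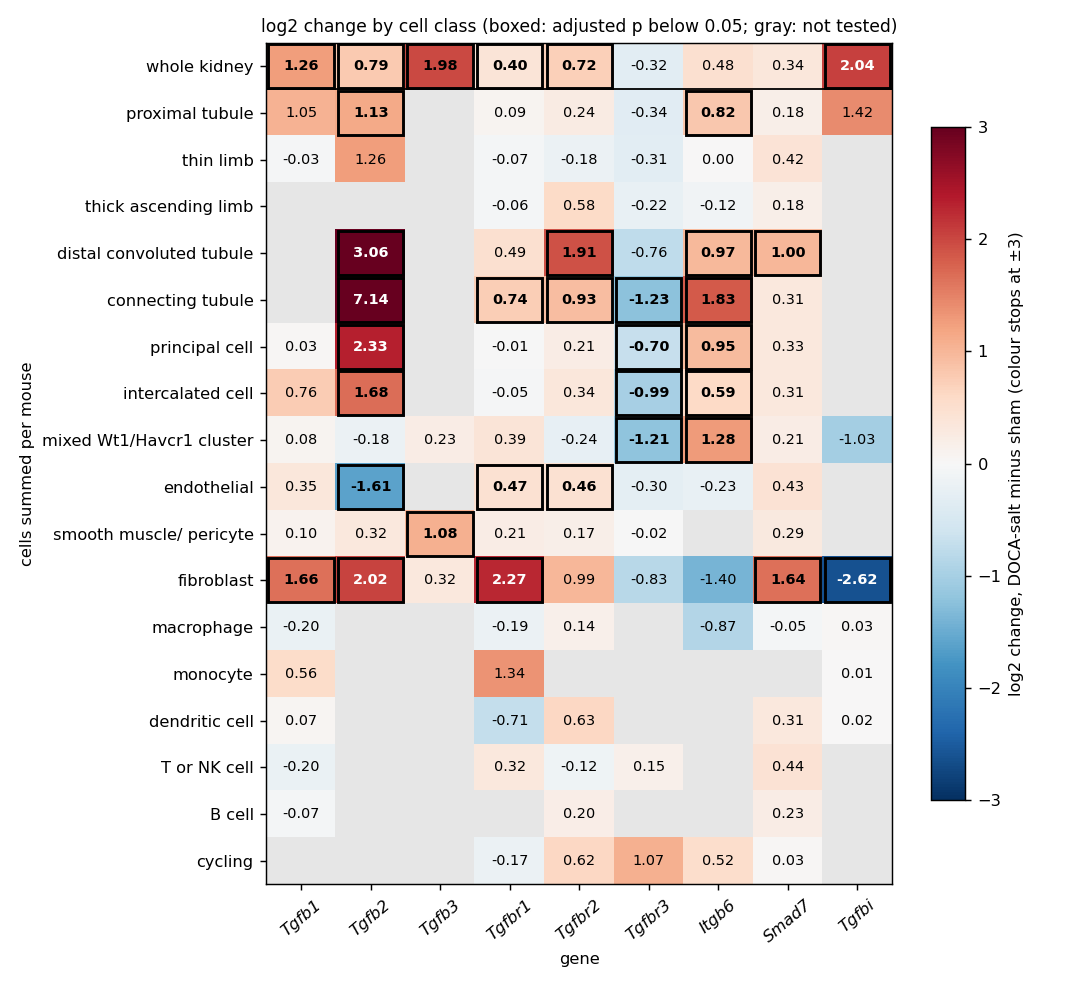
log2 change (DOCA-salt minus sham, color and number) of the 9 genes (columns) in whole-kidney sums and in 17 cell classes (rows), with boxes for an edgeR adjusted p below 0.05 and gray where a gene was not tested. Tgfb2 ranges from 7.14 in the connecting tubule to -1.61 in endothelial cells, Itgb6 has boxed rises in tubular rows, and boxed Tgfbr3 values are falls. The fibroblast row rests on 2 sham mice.

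In the connecting tubule, the segment between the distal tubule and the collecting duct, Tgfb2 went from near absence to abundance. The sham mice gave 3, 3 and 4 UMIs (2.18, 1.97 and 2.36 CPM), and the DOCA-salt mice 454, 491 and 359 UMIs (302, 359 and 435 CPM). These came from 150, 190 and 245 sham and 111, 91 and 109 DOCA-salt cells. The pooled level was 162-fold higher, with an exact 95% interval of 87.8 to 339 that covers counting error only. The fitted change was 7.14 (SE 0.27, adjusted p = 1.38e-09), among 9868 genes of which 11.5% rose and 11.5% fell (23.1% together). The alternatives that could be fitted kept the change between 7.02 and 7.33. Tgfb2 passed the filter on low counts only through the DOCA-salt mice, here and in the fit within the 20% mitochondrial limit below. The size of its change is poorly fixed. With at most 20% mitochondrial UMIs and the cells clustered again, the class could not be tested, because it held 54, 75 and 61 sham but only 5, 3 and 2 DOCA-salt cells. Of the 171 DOCA-salt cells of the class that met this limit, 135 were then placed in the distal convoluted tubule. Kept in their class, the cells within the limit (68, 89 and 86 sham, 58, 54 and 59 DOCA-salt) gave 2.96, 3.91 and 1.39 CPM in sham and 391, 427 and 507 CPM in DOCA-salt mice, a change of 7.09 (SE 0.3, adjusted p = 1.87e-10, 25% of genes called). After thinning every cell to 1000 UMIs, 0.23% ± 0.0224 of sham cells and 17.4% ± 2.64 of DOCA-salt cells had a Tgfb2 UMI (1.34% and 40.6% unthinned, median depths 8230 and 10699 UMIs). In macrophages of the same DOCA-salt mice the thinned share was 0.171% ± 0.113, at a median depth of 4412 UMIs. Gm35546, on the opposite strand, had 0 UMIs in the connecting tubule of every sham mouse and 25, 29 and 21 in the DOCA-salt mice.

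Other members moved in the same connecting tubule cells. Itgb6 rose from 44.4, 51.2 and 39 CPM to 128, 179 and 244 CPM, a change of 1.83 (SE 0.22, adjusted p = 3.3e-05). Tgfbr1 rose by 0.74 (142 ± 17.5 to 269 ± 13.6 CPM, adjusted p = 0.002) and Tgfbr2 by 0.93 (48.1 ± 3.95 to 105 ± 13.7 CPM, adjusted p = 0.0011). Tgfbr3 fell by 1.23 (17.4 ± 7.43 to 8.91 ± 2.76 CPM, adjusted p = 0.0288), on only 82 and 31 UMIs. The groups did not overlap for any of these called genes. Within the 20% limit and the class kept, this held for Itgb6, Tgfbr1 and Tgfbr2, but Tgfbr3 was at 10.4, 13 and 34.7 CPM in sham and 9.24, 5.86 and 12.2 CPM in DOCA-salt mice, with overlap. The median mitochondrial percent of the class also stood apart, at 20.9, 20.7 and 24.1 in sham and 18.3, 16.7 and 18.9 in DOCA-salt mice. The identity markers of the class moved too. The summed level of the 9 connecting tubule markers was 43192 to 57312 CPM in sham and 26330 to 32638 CPM in DOCA-salt mice, with all 9 detected in both groups. The 12 markers of injured tubule went from 22.3–28.9 CPM (10 detected) to 699–1306 CPM (12 detected). The part of these shifts in the results above was not tested.

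Upstream, in the distal convoluted tubule, 7.64% of genes were called (4.66% rising) and 4 members rose. Tgfb2 had 2, 3 and 0 UMIs in sham and 39, 27 and 40 in DOCA-salt mice, a pooled ratio of 9.43 (exact 95% interval 3.92 to 29.7) and a fitted change of 3.06 (SE 0.62, adjusted p = 0.00529). It passed the filter on low counts through the DOCA-salt mice. The Tgfb2 call was lost without sham mouse 3, the one at 0. Its change read 5.95 with at most 20% mitochondrial UMIs, where the class took in the connecting tubule cells named above. The class's own cells within that limit gave 0, 1 and 0 UMIs in sham and 37, 16 and 35 in DOCA-salt mice, too few for the filter on low counts. Tgfbr2 rose by 1.91 (SE 0.26, adjusted p = 0.00016), from 9.52, 4.55 and 9.82 CPM to 35, 34 and 37.4 CPM. Itgb6 rose by 0.97 (57.5 ± 8.9 to 125 ± 18.7 CPM, adjusted p = 0.00177) and Smad7 by 1 (73.1 ± 13.5 to 162 ± 36.2 CPM, adjusted p = 0.00213). All DOCA-salt values of these 4 called genes lay above all sham values. Within the 20% limit and the class kept, Itgb6 and Tgfbr2 stayed apart, but Smad7 was at 66.4, 268 and 124 CPM in sham and 246, 187 and 283 CPM in DOCA-salt mice, with overlap (0.82, adjusted p = 0.0786). The median mitochondrial percent of the class was 33.4, 34.9 and 31.7 in sham and 27.3, 29.5 and 26.1 in DOCA-salt mice, without overlap, and its part was not tested. The injured tubule markers were at 47.3–53.9 CPM in sham and 391–507 CPM in DOCA-salt mice here, and their part was not tested.

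In the collecting duct the same 3 genes were called in both cell types. Principal cells, which reabsorb sodium under aldosterone and of whose genes 8.58% were called (4.86% rising, 3.72% falling), showed Tgfb2 at 2.38, 5.53 and 1.04 CPM in sham and 12.8, 17.9 and 14.2 CPM in DOCA-salt mice, a change of 2.33 (SE 0.42, adjusted p = 0.00409). There too, Tgfb2 passed the filter on low counts through the DOCA-salt mice. Intercalated cells, which handle acid and base and of whose genes 5.43% were called (2.84% rising, 2.59% falling), showed it at 14.1, 20.6 and 20.9 CPM and 58.9, 65.8 and 47.6 CPM, a change of 1.68 (SE 0.18, adjusted p = 0.0011). Itgb6 rose by 0.95 in principal cells (adjusted p = 0.00549) and by 0.59 in intercalated cells (adjusted p = 0.0101). Tgfbr3 fell in both, from 87.1, 111 and 90.5 CPM to 59, 67.1 and 45.4 CPM in principal cells (-0.7, SE 0.17, adjusted p = 0.0213) and from 84.1, 97.8 and 115 CPM to 49.2, 39 and 57.7 CPM in intercalated cells (-0.99, SE 0.17, adjusted p = 0.00839). None of the groups overlapped for these called genes. Among the intercalated clusters, 2 were tested for Tgfb2 and Tgfbr3, and both genes were called in each, with Tgfb2 changes of 1.41 and 2.31 and Tgfbr3 changes of -1.13 and -0.94. Itgb6 was called in the first of them (0.66, adjusted p = 0.01). It was not called in the second (0.46, adjusted p = 0.134) or in a further cluster (0.31, adjusted p = 0.854).

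In the proximal tubule, where 6.65% of genes were called (4.56% rising, 2.08% falling), Itgb6 stood at 142, 172 and 108 CPM in sham and 211, 284 and 285 CPM in DOCA-salt mice, a change of 0.82 (SE 0.18, adjusted p = 0.0319). The groups did not overlap, but the change was uneven over the 8 proximal clusters. It lay between -0.06 and 0.21 in 3 of them and between 0.81 and 1.07 in the other 5, of which 3 passed the test. Tgfb2 rose by 1.13 (SE 0.26, adjusted p = 0.0365) at a low level, 0.806 ± 0.2 to 1.83 ± 0.321 CPM. Both calls were lost without any one of sham mouse 1 or 3 or DOCA-salt mouse 2 or 3, and that of Tgfb2 also without DOCA-salt mouse 1. In the thick ascending limb Itgb6 was at 182, 254 and 174 CPM against 174, 192 and 196 CPM, and in the thin limb at 175, 135 and 135 CPM against 127, 149 and 164 CPM, overlapping in both segments.

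**Figure D4:**
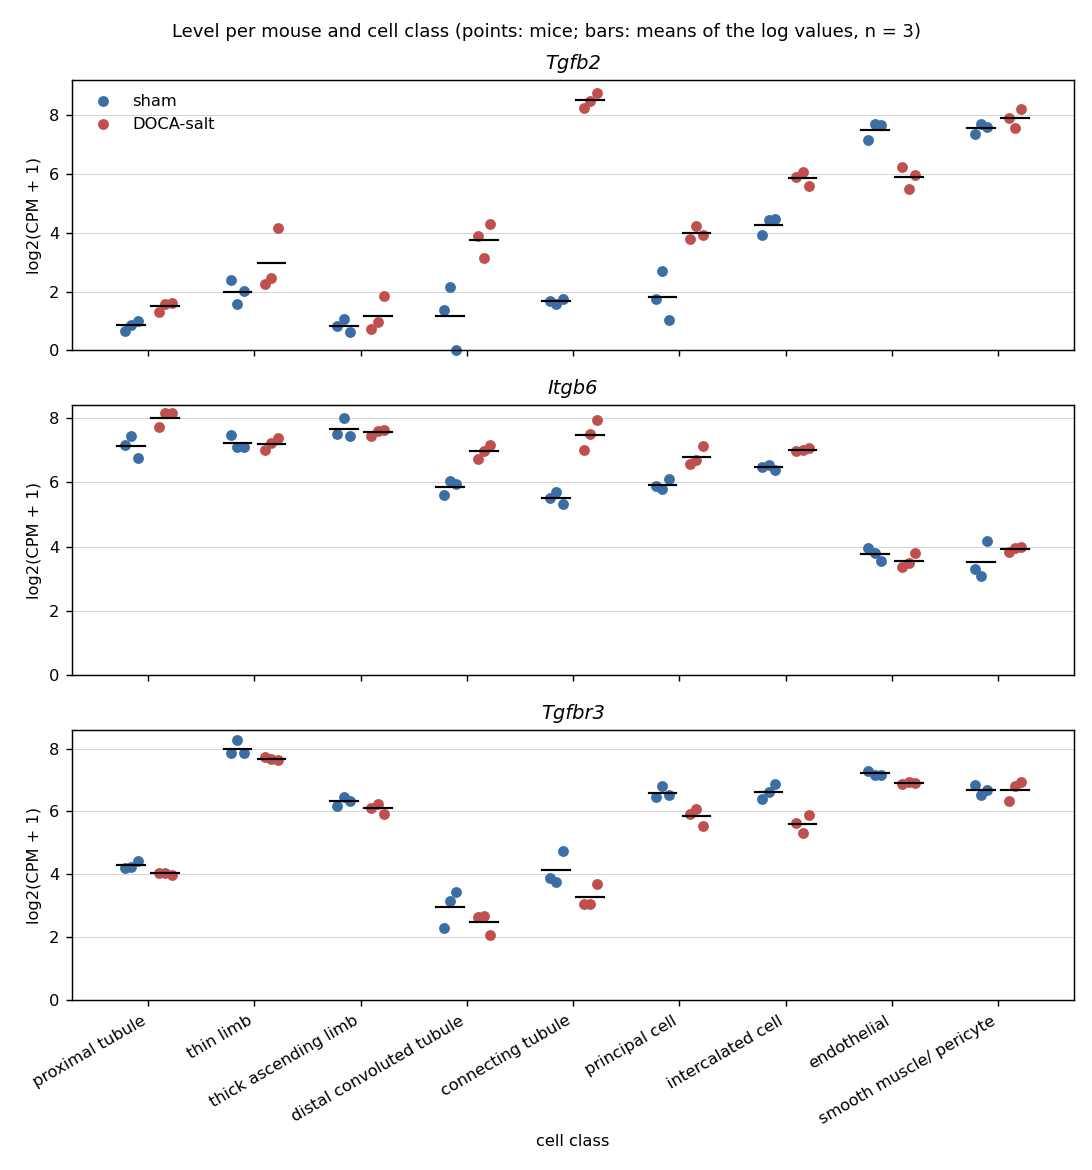
Level of Tgfb2, Itgb6 and Tgfbr3 per mouse, as log2(CPM + 1) (vertical axes), in 9 cell classes (horizontal axis). Points are mice (sham blue, DOCA-salt red) and black bars are means of the log values (n = 3). In the connecting tubule the Tgfb2 points move from 1.97–2.36 CPM to 302–435 CPM, whereas in endothelial cells the DOCA-salt points lie below the sham points.

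A cluster of 1129 cells led by C3, Wt1, Ncam1, Havcr1 and Sox9 carried markers of both parietal epithelium and injured tubule, so it is called here the Wt1/Havcr1 cluster. It held 82, 117 and 132 sham and 247, 255 and 296 DOCA-salt cells, and 24.9% of its genes were called (12.7% rising, 12.3% falling). Itgb6 was at 115, 146 and 139 CPM in sham and 264, 329 and 308 CPM in DOCA-salt mice (1.28, SE 0.15, adjusted p = 8.87e-05), and Tgfbr3 at 225, 245 and 192 CPM and 87.7, 86.8 and 89.5 CPM (-1.21, SE 0.13, adjusted p = 5.88e-05). The groups were apart for both. The makeup of the cluster differed between groups: proximal tubule markers summed to 3680–6825 CPM in sham and 10924–12444 CPM in DOCA-salt mice, and parietal markers to 2004–2814 and 1089–1176 CPM. At a finer clustering it split. The part with injured tubule markers (19, 37 and 50 sham, 211, 246 and 275 DOCA-salt cells) kept both calls (Itgb6 0.74, adjusted p = 0.0125, and Tgfbr3 -0.88, adjusted p = 0.0089), with 9.84% of genes called. The parietal part lost both (Itgb6 -0.58, adjusted p = 0.249, and Tgfbr3 -0.42, adjusted p = 0.143), with 3.08% called. There Tgfb2 rose by 0.8 (adjusted p = 0.0241), whereas it fell by 1 in the injured part (adjusted p = 0.00268). Tgfbr2 was at 234, 181 and 213 CPM in sham and 92.3, 104 and 94.1 CPM in DOCA-salt mice in the injured part, a fall without overlap (-1.06, SE 0.15, adjusted p = 0.000669).

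Of the 18 classes, endothelial cells were the one in which Tgfb2 was called lower. The sham mice gave 143, 205 and 202 CPM and the DOCA-salt mice 73.8, 44.3 and 62 CPM, a change of -1.61 (SE 0.2, adjusted p = 0.00111) among 12817 genes of which 10.6% were called, 6.29% rising and 4.29% falling. No DOCA-salt mouse reached the lowest sham mouse. A cluster led by Cldn5, the arterial genes Sox17 and Gja4 and the vasa recta urea transporter Slc14a1 held most of these UMIs, and a larger one was led by Plvap, Kdr and Esm1, typical of capillaries. Tgfb2 fell in each alone, from 206, 309 and 279 CPM to 146, 109 and 152 CPM in the first (-1, adjusted p = 0.00447) and from 25.6, 47.7 and 28.4 CPM to 13.9, 13.7 and 18.3 CPM in the second (-1.16, adjusted p = 0.0144). The within-cluster falls are thus smaller than the fall over the class. The first held 211, 190 and 244 sham and 176, 160 and 164 DOCA-salt cells, while the second grew from 274, 305 and 250 to 394, 543 and 512.

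The receptors rose in endothelial cells by modest amounts. Tgfbr1 was at 38.6, 39.4 and 37.3 CPM in sham and 52.1, 53.7 and 52.5 CPM in DOCA-salt mice (0.47, SE 0.11, adjusted p = 0.0241). Tgfbr2 was at 222, 252 and 180 CPM and 302, 291 and 299 CPM (0.46, SE 0.13, adjusted p = 0.0418). The groups were apart, but neither gene was called within either of these clusters (changes of 0.2 to 0.38), and both calls were lost without any one of 5 of the 6 mice. Tgfb1 in endothelial cells was at 119 ± 10.2 CPM in sham and 151 ± 11 CPM in DOCA-salt mice (0.35, SE 0.12, adjusted p = 0.094).

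Smooth muscle cells and pericytes contract around vessels. In them 1.52% of genes were called (0.917% rising, 0.602% falling), and Tgfb3 rose from 48.4, 33.7 and 36.1 CPM to 107, 66.9 and 83.2 CPM (64 and 155 UMIs in all), a change of 1.08 (SE 0.25, adjusted p = 0.0354). The groups did not overlap, but the call was lost without any one of the sham mice or DOCA-salt mouse 1 or 3 and with DESeq2. Tgfb2 was at 188 ± 21.1 CPM in sham and 241 ± 55.8 CPM in DOCA-salt mice and did not pass (0.32, adjusted p = 0.553).

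Fibroblasts, the main matrix-producing cells, were compared between 2 sham mice with 23 and 10 cells and 3 DOCA-salt mice, since sham mouse 2 gave only 4. Over all genes tested in them the median change was 0.23, and 8.7% were called (4.49% rising, 4.21% falling). Tgfbr1 was at 40 and 15.4 CPM (6 and 1 UMIs) in sham and 136, 151 and 173 CPM in DOCA-salt mice, a change of 2.27 (SE 0.46, adjusted p = 0.00197). Smad7 rose by 1.64 (adjusted p = 0.00622, 16 sham UMIs), Tgfb2 by 2.02 (adjusted p = 0.0337, 4 sham UMIs) and Tgfb1 by 1.66 (adjusted p = 0.0331, 11 sham UMIs). These sham UMIs are sums over mice and do not show how far apart the sham mice were. With so few sham UMIs, the rises of Smad7, Tgfb2 and Tgfb1 can rest largely on 1 sham mouse, and their sizes are poorly fixed. Tgfbi fell by 2.62 (SE 0.35, adjusted p = 1.63e-05), but its sham values of 547 and 77 CPM were far apart, against 56.9, 70.7 and 50.8 CPM in DOCA-salt mice. With either sham mouse left out, 1 sham mouse remained, below the minimum of 2 used elsewhere, and its spread had to be assumed like that of the DOCA-salt mice. In that fit none of the 5 changes passed without sham mouse 1, and that of Tgfb2 did not pass without sham mouse 3. Without doublet removal, the changes of Tgfb1 (0.26), Tgfbi (-0.36) and Smad7 (0.27) were no longer called and that of Tgfb2 turned to -0.79. There the cells were clustered again and sham mouse 2 entered the fit too, with 33, 14 and 19 sham cells in the class.

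Each of the 28 calls in a class was set against the rest of the kidney of the same mice, and the change differed for 19 by edgeR. The rest was the sum of all other cells, so its change also holds shifts in the shares of cell types. Among all genes' tests in these classes 11.5% differed, but the 28 pairs were chosen for their change in the class, so the 19 cannot be read against that share. The count was 12 without sham mouse 1 (fibroblasts then with 1 sham mouse), 11 with at most 20% mitochondrial UMIs and the cells clustered again, and 13 with that limit and the classes kept. The connecting tubule change of Tgfb2 exceeded that of the rest by 6.67 (SE 0.26, adjusted p = 8.92e-138), and the endothelial change lay below it by 3.51 (difference -3.51, SE 0.18, adjusted p = 4.69e-07). These p-values rest on a spread that edgeR shares over genes. They do not measure the spread between the mice of a group alone. For Itgb6 the difference passed in the proximal, distal convoluted and connecting tubule, principal cells and the Wt1/Havcr1 cluster (0.44 to 1.27) but not in intercalated cells (0.05, adjusted p = 0.85). With at most 20% mitochondrial UMIs and the classes kept, the value of the Wt1/Havcr1 cluster was 0.86. Where the cells were clustered again the cluster split, and the values of -1.19 at that limit and -1.08 at Leiden resolution 2 are those of its parietal part alone, which held 50, 57 and 57 and 55, 52 and 58 DOCA-salt cells. For Tgfbr3 it passed in the connecting tubule, intercalated cells and the Wt1/Havcr1 cluster (-0.98 to -0.8) but not in principal cells (-0.38, adjusted p = 0.0893). That of the Wt1/Havcr1 cluster was -0.79 at 20% with the classes kept, and that of its parietal part alone -0.08 (adjusted p = 0.896). The endothelial changes of Tgfbr1 and Tgfbr2 and the Tgfb3 change in smooth muscle cells and pericytes did not differ from the rest by this test (adjusted p = 0.797, 0.416 and 0.0884).

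With all tubular segments summed, where 6.37% of genes were called (4.3% rising, 2.07% falling), Tgfb2 rose from 1.88, 2.41 and 2.64 CPM to 13.1, 14.2 and 14.7 CPM (2.57, SE 0.15, adjusted p = 0.000349), Itgb6 by 0.71 (adjusted p = 0.0371), and Tgfbr3 fell by 0.53 (adjusted p = 0.0258). The groups were apart in each case. The tubular rise of Tgfb2 was uneven over the segments. Of all Tgfb2 UMIs of the DOCA-salt mice, 19.8% came from the distal convoluted and connecting tubule and 13.1% from principal and intercalated cells. The proximal tubule gave 3.41% and the thin and thick limb 1.08%. The Wt1/Havcr1 cluster, which held 26.0% of the DOCA-salt Tgfb2 UMIs, is not in this sum. In its part with injured tubule markers Tgfb2 changed by -1. Tgfbi was called too (1.67, adjusted p = 0.0317) but at 0.206 ± 0.107 and 0.7 ± 0.167 CPM, 44 and 134 UMIs. Macrophage markers in the same cells summed to 48.9–75.1 CPM in sham and 75.6–92.9 CPM in DOCA-salt mice, and their part was not tested.

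Around the 9 genes, 63 other genes of the pathway were followed in 4 roles. In whole-kidney sums 36 were called higher, none lower and 27 not called, with a median change of 0.66, against 11.5% rising, 5.69% falling and a median of -0.03 over all genes. Leaving out fibroblasts lowered the count to 25. Of 18 genes of latency and activation, 10 rose, led by the latent TGF-beta binding protein Ltbp2 (6.52, SE 0.52, adjusted p = 0.000354; 0.188 ± 0.173 to 18.4 ± 6.2 CPM). The proteases Mmp2 and Mmp14 rose by 3.63 and 2.33. The integrin subunits Itgb3 and Itgb5 rose by 1.49 and 1.16, whereas Itgav, the partner of Itgb6, gave 0.22 (adjusted p = 0.203). Of 8 receptors, co-receptors and SMADs only Eng (1.07) and Acvr1 (0.51) rose, and Smad2, Smad3 and Smad4 gave 0.05, 0.28 and 0.05 without passing. Of 15 inhibitors 9 rose, among them Pmepa1 (1.22), Smad6 (0.58) and the proteoglycans Bgn (3.45) and Dcn (2.97). Of 22 target genes 15 rose, led by the protease inhibitor Timp1 (6.19, SE 0.3, adjusted p = 0.000211) and the collagens Col1a1 (4.71), Col1a2 (4.44) and Col3a1 (4.43). Fibroblasts held 26897 of the 29201 Col1a1 UMIs and 19161 of the 21340 Dcn UMIs of the DOCA-salt mice, and their share of cells was higher in those mice. Within fibroblasts Col1a1 (-0.42), Col1a2 (-0.35), Col3a1 (-0.61) and Bgn (0.44) were not called (adjusted p = 0.44, 0.569, 0.263 and 0.447), and Dcn was called lower (-1.86, adjusted p = 0.00114). The fibroblast fit rests on 2 sham mice, whose Dcn values of 3494 and 9656 CPM were far apart.

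**Figure D5:**
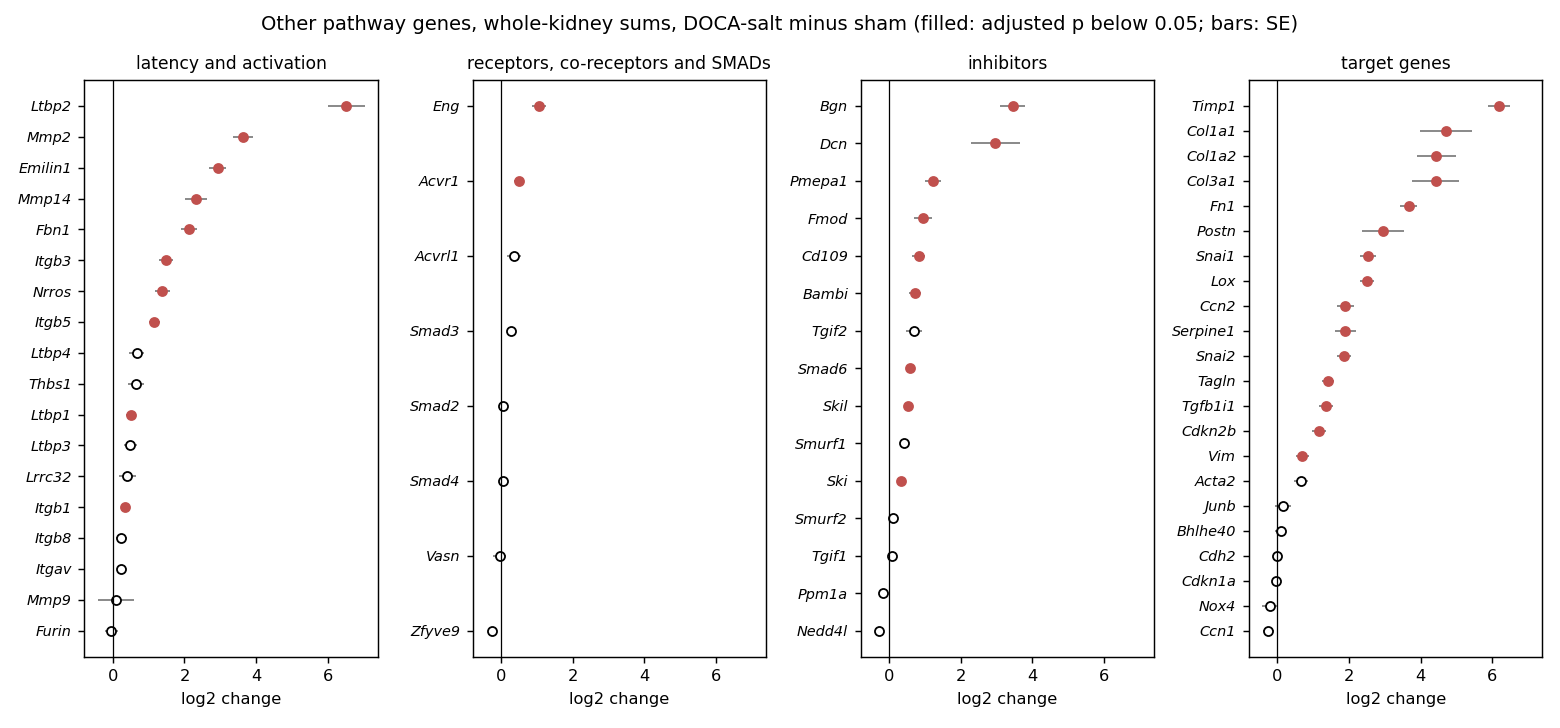
log2 change in whole-kidney sums (horizontal axes, DOCA-salt minus sham) of 63 other pathway genes in 4 roles, with SE bars and filled points for an edgeR adjusted p below 0.05. Filled points are 10 of 18, 2 of 8, 9 of 15 and 15 of 22 from left to right, and all lie above 0.

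In the connecting tubule 19 of 36 tested pathway genes rose and 4 fell (all genes: 11.5% each). The matrix gene Fn1 rose from 0.197 ± 0.341 to 30.1 ± 18.5 CPM (6.36, adjusted p = 4.08e-05), on 1 sham and 99 DOCA-salt UMIs. Ltbp1 rose from 0.947 ± 1.12 to 38 ± 21.7 CPM (5.04, adjusted p = 4.85e-05), on 4 and 125 UMIs. Both passed the filter on low counts through the DOCA-salt mice, and the sizes of these changes are poorly fixed. Ltbp2 had 0 UMIs there in every sham mouse and 32.5 ± 24.5 CPM in DOCA-salt mice. The falls were led by Bhlhe40 (-0.97), Junb (-0.94) and Zfyve9 (-0.85). In principal cells Ccn2, a matricellular target gene, rose from 18.1 ± 1.82 to 59.8 ± 2.05 CPM (1.77, adjusted p = 5.84e-05) and the integrin subunits Itgav and Itgb1 by 1.02 and 0.63. Nedd4l, a ubiquitin ligase that also acts on the sodium channel, fell there by 0.92, Zfyve9, which presents SMADs to the receptor, by 0.79 and Vasn by 0.72. Intercalated cells showed a fall of Itgav by 0.68 and rises of Col3a1 (4.35), Col1a1 (4.02) and Bgn (3.29), which reached only 4.68, 3.69 and 6.3 CPM. The same genes reached 5.79, 5.25 and 8.22 CPM in the proximal tubule. The 22 fibroblast markers summed to 5.72–10.6 CPM in sham and 21.8–37.4 CPM in DOCA-salt intercalated cells, and their part was not tested. In the distal convoluted tubule the integrin subunit Itgb8 rose by 1.41 (5.94 ± 1.31 to 18 ± 1.22 CPM), Bgn by 2.7 from only 4 sham UMIs to 7.71 CPM, and the cell cycle inhibitor Cdkn1a by 1.06. Fibroblast markers there summed to 20.5–30.7 CPM in sham and 23.7–33.4 CPM in DOCA-salt mice. In the Wt1/Havcr1 cluster 12 of 52 tested pathway genes rose and 14 fell (all genes: 12.7% and 12.3%). Fn1 rose there from 11.8 ± 0.645 to 53.6 ± 13.6 CPM (2.3, adjusted p = 7.66e-05). Col3a1 (3.85) and Col1a1 (3.06) rose from 1 and 4 sham UMIs and reached only 4.02 and 8.46 CPM. Thbs1, an activator of latent TGF-beta, fell from 373 ± 87.2 to 111 ± 16.1 CPM (-1.63, adjusted p = 6.94e-05), and the inhibitors Fmod and Bambi by 2.19 and 2.1. As described above, the makeup of this cluster differed between the groups. The pathway genes were not fitted in its injured and parietal parts, so the part of that shift was not tested.

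In endothelial cells 16 of 58 tested pathway genes rose and 3 fell (all genes: 6.29% and 4.29%), the latter being Fbn1 (-1.27, 75.6 ± 13.5 to 31.4 ± 5.46 CPM), Cdkn1a (-0.81) and Mmp2 (-1). Their largest rises, Col1a1, Col3a1 and Dcn, reached only 8.36 ± 3.38, 12.6 ± 1.78 and 4.84 ± 2.5 CPM, and fibroblast markers there summed to 14.4–19.4 CPM in sham and 22.5–25.6 CPM in DOCA-salt mice. In smooth muscle cells and pericytes Lox rose by 2, Fn1 by 1.84 and Thbs1 by 1.82, and Cdkn1a fell by 0.95. In fibroblasts 16 rose and 7 fell of 61 tested (all genes: 4.49% and 4.21%), with Timp1 at 72.1 ± 58.4 CPM in 2 sham and 704 ± 69.1 CPM in 3 DOCA-salt mice. Thbs1 rose by 3.32, but its sham values of 20 and 185 CPM (15 UMIs in all) were far apart. Cdkn2b, a cell cycle inhibitor, had 0 UMIs in the 2 sham mice and 71.1 ± 11.5 CPM in DOCA-salt mice. Fmod (-2.47), Postn (-2.13) and Nox4 (-1.97) fell, as did Dcn, while the collagens named above were not called. The 2 sham mice were far apart for Postn (92.3 and 280 CPM), Nox4 (233 and 585 CPM) and Dcn (3494 and 9656 CPM). The sizes of these falls therefore depend on which sham mouse is used. In the proximal tubule the largest rises were those of Timp1, Ltbp2 and Mmp2, each below 2 CPM in both groups, and Bambi fell by 1.12 (3.18 ± 0.821 to 1.55 ± 0.348 CPM). Fibroblast markers went from 2.98–3.11 to 7.12–12.2 CPM in those cells, and their part was not tested.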

How the data were processed

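Kidney cells of 3 sham and 3 DOCA-salt mice were profiled with a 10x Genomics 3′ kit. The deposited values are whole-number UMI counts per gene and called barcode, made by the authors with Cell Ranger (9.0.0 in the submitters' processing notes, 8.0.1 in the file headers) on GRCm39. The annotation release is not given in the sources used here. The notes also name Seurat 4.0.0 and R 4.0.3.

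Barcodes were kept with at least 170 genes, 500 UMIs, at most 50% mitochondrial and 5% hemoglobin UMIs. The highest Scrublet scores were removed at 0.8% per 1000 barcodes, since the automatic threshold marked 0 barcodes of 1 library. Counts were scaled to 10000 per cell, and 2000 variable genes without the 9 members and the pathway list, 30 principal components, 15 neighbors and Leiden resolution 1 gave the clusters (scanpy 1.11.5, Python 3.11.15). Clusters were named from marker lists.

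UMIs were summed per mouse and class (at least 10 cells, 2 mice per group) and tested with edgeR 4.0.16 in R 4.3.3 (quasi-likelihood, TMM, filterByExpr), with Benjamini-Hochberg adjustment over all genes of a fit and a threshold of 0.05. A term for the mouse was used when a class was set against the rest of the kidney. The scripts were tested on simulated data. Intervals cover counting error only. Libraries held 93172739 to 137819127 UMIs. Alternatives were other scalings, DESeq2 1.42.0, no filter, a replicate block, each mouse left out, a mitochondrial limit of 20%, no doublet removal, Leiden resolution 2, and, chosen after seeing the data, single clusters, the split of 1 class, and the 20% limit without clustering again.

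All 9 members are described. Of the pathway list, the 5 genes with the largest called change in each direction were named in whole-kidney sums and the 3 in each class with a called member. Other genes of the list were named after their values were seen. The members and lists were chosen with earlier results of these data known. Each mouse gave 1 library. The replicate numbers did not pair the mice.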

Additional observations from a re-analysis of the deposited data

Results flagged for a closer look

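For 19 of the 28 calls in a cell class, the log2 change in the class differed from that in the rest of the kidney of the same mice (edgeR, adjusted p below 0.05). The 28 were chosen for their change in the class. The count was 12 without sham mouse 1 (fibroblasts then with 1 sham mouse) and 11 with at most 20% mitochondrial UMIs. The values below are these differences, class minus rest, and no cause was tested. The rest was the sum of all other cells, so shifts in the shares of cell types enter these values.

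For Tgfb2 the difference was 6.67 in the connecting tubule (SE 0.26), 2.34 in the distal convoluted tubule (SE 0.54), 1.61 in principal cells (SE 0.36), 0.91 in intercalated cells (SE 0.19) and 0.71 in the proximal tubule (SE 0.19). In endothelial cells it was -3.51 (SE 0.18). Tgfb2 was thus the member with differences in both directions.

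For Itgb6 the difference was 1.27 in the connecting tubule, 0.91 in the Wt1/Havcr1 cluster, 0.56 in the proximal tubule, 0.50 in principal cells and 0.44 in the distal convoluted tubule, the last with an adjusted p of 0.0498. Where the Wt1/Havcr1 cluster split, its small parietal part gave -1.19 (at most 20% mitochondrial UMIs) and -1.08 (Leiden resolution 2). The larger part with injured tubule markers kept a called rise of Itgb6 at resolution 2 (a change of 0.74, adjusted p = 0.0125). For Tgfbr3 it was -0.98 in the connecting tubule, -0.80 in intercalated cells and -0.80 in the Wt1/Havcr1 cluster. In the distal convoluted tubule it was 1.21 for Tgfbr2 and 0.66 for Smad7.

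In fibroblasts the difference was 1.9 for Tgfbr1, 1.23 for Smad7 and -4.64 for Tgfbi. These rest on 2 sham mice. Leaving one out leaves 1 sham mouse, whose spread is then assumed like that of the other libraries, and in that fit none of the 3 passed without sham mouse 1 and Tgfbr1 did not pass without sham mouse 3.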

How the results depend on the processing

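In whole-kidney sums Tgfb1, Tgfb3, Tgfbr2 and Tgfbi kept direction and call under all 16 alternatives, and of the 28 calls in classes 12 did under those that could be fitted. Of the 9 members 6 were higher, and 4 to 8 with 1 mouse left out. Leaving out fibroblasts gave 1 member lower (Tgfbr3). Calls over classes numbered 22 higher (15 to 26 with 1 mouse left out, 15 to 31 over all alternatives) and 6 lower (4 to 6), the latter 3 with at most 20% mitochondrial UMIs. Pathway genes higher numbered 36 (25 to 39 with 1 mouse left out, 25 to 43 over all alternatives), and DESeq2 gave 1 lower. Differences from the rest numbered 19, with 12 to 19 when 1 mouse was left out (12 without sham mouse 1) and 11 with at most 20% mitochondrial UMIs. That limit could not be fitted for fibroblasts (1 sham mouse with at least 10 cells) or the connecting tubule when cells were clustered again, so that 13 of the 19 differences could be fitted and 10 passed, against 12 of 16 with the classes kept.

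Some values turned. The Wt1/Havcr1 class split when clustered again, and in its parietal part alone Itgb6 was -0.62 at 20% mitochondrial UMIs and -0.58 at Leiden resolution 2, its difference from the rest -1.19 and -1.08, and Tgfb2 0.80 at resolution 2. Itgb6 in the larger injured part was 0.74 at resolution 2. Without doublet removal, where sham mouse 2 also entered the fibroblast fit, Tgfb2 in fibroblasts went to -0.79 and its difference to -1.37. Itgb6 was -0.057 and -0.0051 in 2 proximal clusters taken alone. With the 20% limit and the classes kept, Itgb6 in the Wt1/Havcr1 class was 1.27. Causes were not tested otherwise.

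Same-numbered mice had correlations of -0.01, -0.40 and -0.04, so the replicate block was not used for the calls. With it, 5 members were higher and 0 lower in whole-kidney sums, 15 calls were higher and 6 lower over classes, and 30 pathway genes were higher. Counts of a few UMIs limit Tgfb3, Tgfbi in tubular cells, and Tgfb1, Tgfb2 and Tgfbr1 in sham fibroblasts.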

Other observations

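Over 19 cell classes, the gene whose level was most like that of Tgfb2 was Gm35546, on its opposite strand (Pearson r = 0.91, among 12019 genes compared). For Tgfb3 it was Gabrb1 (0.97), followed by Foxs1 (0.95) and Ednra (0.94). For Itgb6 it was Grb7 (0.97), for Tgfbi Lyz2 (0.91) and for Tgfbr3 Spry1 (0.90). The classes of a mouse share a library, and no test was made.

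An unnamed cluster of 609 cells, 602 of them from DOCA-salt mouse 2, was led by Slc39a1, Bgn and Ncam1 and held Itgb6 at 178 CPM and Tgfbi at 7.08 CPM in that mouse. Leaving this cluster out of whole-kidney sums gave 6 members higher.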
